A study of Homo sapiens with 18 samples.

Results

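CLK1, CLK2, CLK3 and CLK4, SRPK1 and SRPK2, DYRK1A and RSRP1 are 8 human genes: 7 encode protein kinases that phosphorylate splicing factors, and RSRP1 encodes a small arginine- and serine-rich protein. Their rows were found by matching the Ensembl identifiers of the count tables to these symbols in GENCODE 29, which gave 8 of the 58051 gene rows. All 8 were among the 15055 genes that passed the filter on low counts. RNA came from the human cell line KBM7, which grew out of a chronic myelogenous leukaemia, in 18 polyadenylated RNA libraries, 3 for each of 6 groups. The control group received the solvent DMSO. The other groups received either dCeMM-1 or one of dCeMM-2, dCeMM-3 and dCeMM-4, each at 10 times its EC50, or THZ531 at 600 nM, and every group was treated for 5 h. dCeMM-1 is known to make cells degrade the splicing factor RBM39, dCeMM-2, dCeMM-3 and dCeMM-4 are known to deplete cyclin K, and THZ531 binds covalently to the cyclin K partners CDK12 and CDK13 and inhibits them. The series' title names a search for molecular glue degraders. The comparisons ask how the RNA of these kinases stood after each compound, relative to DMSO and between the 4 dCeMM compounds at the same multiple of their EC50. The dose of THZ531 was set in another way, so its values stand beside the others without a test between them.

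CLK kinases sit in the nucleus and phosphorylate SR proteins, a family of splicing factors with tails of alternating arginine and serine, which releases the SR proteins from storage in nuclear speckles. SRPK kinases work mostly in the cytoplasm, where they phosphorylate the same tails and so mark SR proteins for import into the nucleus. DYRK1A, of the neighbouring DYRK branch, is found in the nucleus and in speckles and phosphorylates splicing factors among many other substrates. CLK1 and CLK4 are known for transcripts that keep introns, stay in the nucleus and are spliced to mature mRNA when CLK activity falls or cells are stressed, and RSRP1 is also known for retained-intron transcripts.

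The annotation shows how much of each gene belongs to such transcripts. GENCODE 29 (build GRCh38) lists 8 retained-intron transcripts of 15 for CLK1, 8 of 27 for CLK3, 7 of 15 for CLK4, 4 of 22 for RSRP1, 4 of 24 for DYRK1A, 4 of 13 for SRPK1, 2 of 15 for SRPK2 and 0 of 7 for CLK2. Bases that are exonic only through a retained intron made up 46.9% of the exonic length of CLK1, 38.3% of CLK4 and 24.75% of DYRK1A. The share was 17.8% for CLK3, 16.4% for SRPK1, 14.9% for SRPK2, and 0% for CLK2 and RSRP1. CLK2 has no retained-intron transcript, while all bases of the 4 of RSRP1 are also exonic in transcripts of other types. For RSRP1 the 0% thus does not mean that no intron is annotated as retained. In the coding sequence, 4 of 11 introns were annotated as retained in CLK1, 4 of 11 in CLK4 and 2 of 11 in CLK3. The third coding intron was annotated as retained in all 3, and in CLK1 it follows the exon whose skipping is known to truncate the kinase. It lies at chr2:200859747-200860124 (minus strand, 378 bases) in CLK1, at chr5:178616949-178617343 (minus strand, 395 bases) in CLK4 and at chr15:74622217-74622493 (plus strand, 277 bases) in CLK3. RSRP1 had 1 of its 3 coding introns annotated as retained, the second, at chr1:25243634-25245149 (minus strand, 1516 bases). The splice sites of these introns are shown because transcripts annotated to keep them belong to the same genes, so that reads of such transcripts, if present, could enter the counts. The donor runs from the last 10 exon bases into the intron and the acceptor runs from the intron into the first 10 exon bases, and the capitals mark the first and last 2 intron bases.
CLK1 intron 3 donor: agtgcaagatGTatagaatatttttcaaca
CLK4 intron 3 donor: agagcaagatGTatagaatatttttcaaca
CLK3 intron 3 donor: caagagcgatGTacagccacctttcgtaaa
CLK1 intron 3 acceptor: gatttatttctctcttttAGatgaaattgt
CLK4 intron 3 acceptor: tttttccctcctcactctAGatgaaatcgt
CLK3 intron 3 acceptor: caatttcttttctctcctAGatgagattgt
RSRP1 intron 2 donor: aaagcctgaaGTaagtattctaggtttgtc
RSRP1 intron 2 acceptor: ctttttcttaacctgtctAGctgtcggaaa
The donors of CLK1 and CLK4 were identical at 29 of 30 bases, against 14 of 30 for CLK1 and CLK3. The acceptors were closer between CLK1 and CLK3, at 22 of 30 bases, than between CLK1 and CLK4, at 18 of 30. The second coding intron is also annotated as retained in all 3 genes, and there the donors of CLK1 and CLK4 were identical at 17 of 30 bases. A count per gene does not tell spliced from retained transcripts, so none of the values below separates them.

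Whether replicate libraries stem from different cultures is not given in the sources used here, so p-values measure the spread between these libraries. THZ531 replicate 1 stood farthest from its group, and no call of the 8 genes with THZ531 against DMSO changed without it. Gene counts summed to between 4598576 and 17943571 per library, the fewest in DMSO replicate 3. Levels are given as CPM, the gene's reads relative to the library total, after scaling by TMM, which holds the bulk of genes level between libraries. Spike-in RNAs took 0.179% of reads with DMSO, 0.176% with dCeMM-1 and 0.234% with dCeMM-4, and 0.512%, 0.542% and 0.531% with dCeMM-2, dCeMM-3 and THZ531. Against the spike-ins, the median log2 difference of all genes from DMSO was 0.10 with dCeMM-1, -0.56 with dCeMM-4, -1.80 with dCeMM-2, -1.94 with THZ531 and -1.96 with dCeMM-3, so TMM values below describe a gene relative to the other genes. Spike-in values are given beside some of them, and a TMM value without one says nothing about the spike-in scale. In bulk RNA, fewer cells and less RNA per cell cannot be told apart, and the amount of spike-in per cell is not given in the sources used here. All 10 haematopoietic markers were detected in every library. Marker levels are CPM without TMM scaling, so they are not on the scale of the other levels. The summed level of 3 epithelial, 3 fibroblast or 3 lymphoid markers stayed at or below 4.86 CPM. Without TMM scaling, the summed haematopoietic markers ran from 1996 to 2088 CPM with DMSO and were lowest with THZ531, at 782 to 810 CPM. Their part in the results below was not tested.

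In DMSO-treated cells, SRPK1 had the most RNA per length and CLK2 the least. On the scale of CPM per kilobase of annotated exon, SRPK1 stood at 30.3 ± 0.98 (mean ± SD, n = 3, as for all means below), CLK1 at 13.8 ± 0.96, SRPK2 at 8.67 ± 0.41, RSRP1 at 5.67 ± 0.46, DYRK1A at 5.02 ± 0.40, CLK3 at 3.97 ± 0.28, CLK4 at 2.44 ± 0.07 and CLK2 at 1.43 ± 0.07. The ranges of RSRP1 and DYRK1A overlapped, and no other neighbours in this order did. With retained-intron-only bases left out of the length and all reads kept, CLK1 stood at 26.1 and CLK4 at 3.95 CPM per kilobase. DYRK1A, at 6.67, then came before RSRP1, whose length did not change. Any reads of the bases left out remain in these values.

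The 8 genes did not move as one. Relative to other genes, RSRP1 rose with dCeMM-1, dCeMM-2, dCeMM-4 and THZ531, by 2.64 to 3.61 times, and did not pass the test with dCeMM-3. CLK1 rose with the same dCeMM compounds and fell with dCeMM-3 and THZ531. CLK4 rose with dCeMM-1 and dCeMM-4 and fell with the other 3 compounds. SRPK1 fell with all 5 compounds, by 1.41 to 1.57 times. DYRK1A and CLK3 rose with dCeMM-4 and fell with dCeMM-3. Against the spike-ins, the rises with dCeMM-1 held for CLK1, CLK4 and RSRP1 and those with dCeMM-4 held for CLK1, CLK3 and RSRP1, while no rise held with dCeMM-2 or THZ531. Libraries that do not overlap DMSO, given for single genes below, were common. They were found for 44.4% of all tested genes with dCeMM-1, 78.3% with dCeMM-2, 79.7% with dCeMM-3, 70.5% with dCeMM-4 and 79.6% with THZ531.

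**Figure D1:**
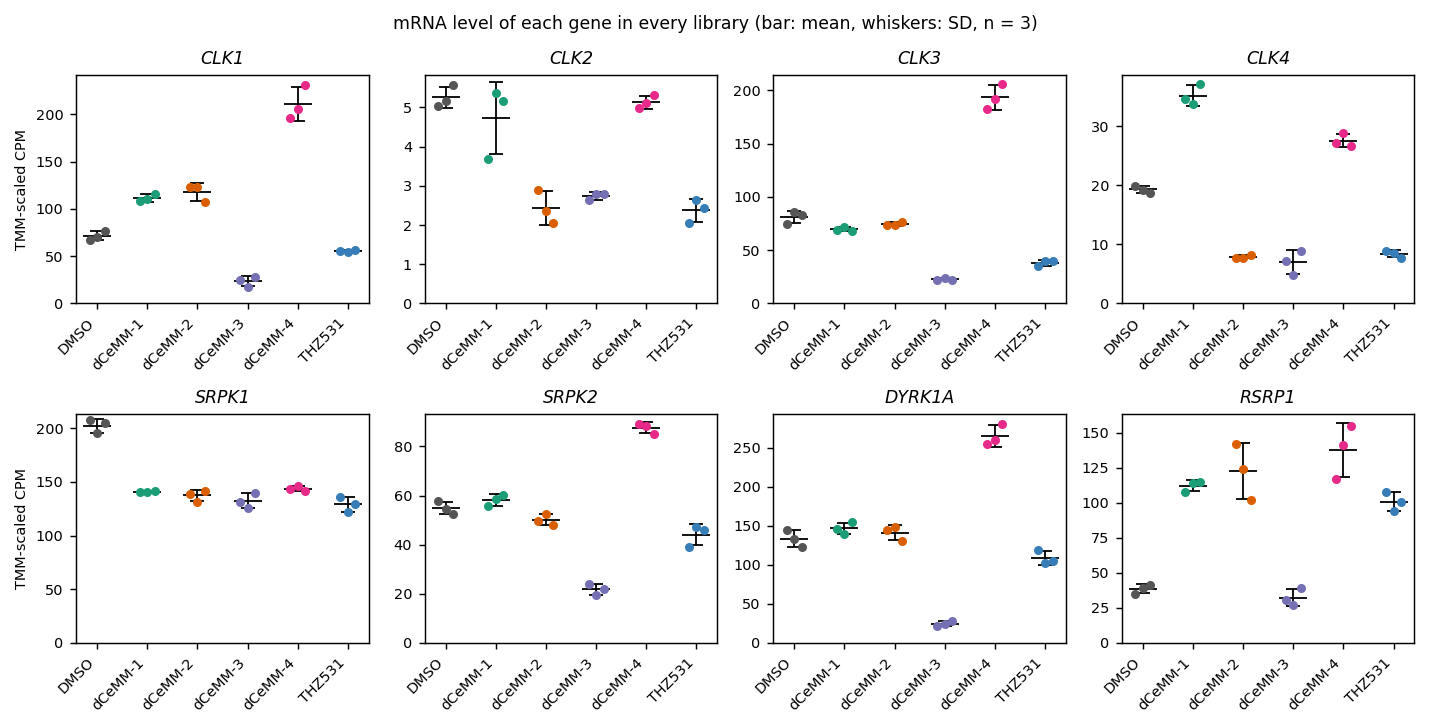
TMM-scaled CPM of the 8 genes (linear axes from 0, one panel a gene) in each of the 18 libraries, by group, with points for libraries, bars for group means and whiskers for the SD. RSRP1 lies between 94.03 and 155 CPM with dCeMM-1, dCeMM-2, dCeMM-4 and THZ531 and between 27.3 and 41.2 CPM with DMSO and dCeMM-3, and DYRK1A is lowest with dCeMM-3.

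Among the CLK kinases, CLK1 rose with dCeMM-1, dCeMM-2 and dCeMM-4 relative to other genes and fell with dCeMM-3 and THZ531. It encodes the founding member of the family and stood at 67.4, 70.2 and 77.05 CPM in the 3 DMSO libraries. The level was 108, 111 and 116 CPM with dCeMM-1, 123, 123 and 107 with dCeMM-2 and 196, 206 and 232 with dCeMM-4. With dCeMM-3 it was 25.2, 17.6 and 28.1 CPM and with THZ531 55.8, 54.7 and 57.1 CPM. No treated library fell within the DMSO range, with 9 libraries above it and 6 below. CLK1 rose 1.57-fold with dCeMM-1 (log2 difference 0.65, SE 0.09, adjusted p = 7.01e-07) and 2.97-fold with dCeMM-4 (1.57, SE 0.09, adjusted p = 2.66e-17), and both held against the spike-ins, at 0.70 and 1.00 on the log2 scale. The 1.67-fold rise with dCeMM-2 (0.74, SE 0.09, adjusted p = 4.97e-09) was relative to other genes only: against the spike-ins CLK1 was lower than in DMSO, at -1.06 (SE 0.21, adjusted p = 1.06e-06). The fall was 2.96-fold with dCeMM-3 (-1.57, SE 0.10, adjusted p = 2.50e-16) and 1.27-fold with THZ531 (-0.35, SE 0.09, adjusted p = 0.00125). The call with THZ531 did not hold with DESeq2's size factors, which gave a log2 difference of -0.19.

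CLK4, the member closest to CLK1 in sequence, rose with dCeMM-1 and dCeMM-4 relative to other genes and fell with dCeMM-2, dCeMM-3 and THZ531. It stood at 19.95, 19.3 and 18.8 CPM with DMSO and at 34.6, 33.8 and 37.2 CPM with dCeMM-1. With dCeMM-4 the level was 27.2, 28.9 and 26.6 CPM. With dCeMM-2, dCeMM-3 and THZ531 it was 7.72, 7.76 and 8.17, then 7.17, 4.87 and 8.90, then 8.95, 8.60 and 7.72 CPM. All 9 libraries of those last groups lay below all DMSO libraries. The rise was 1.81-fold with dCeMM-1 (log2 difference 0.86, SE 0.10, adjusted p = 2.42e-08) and 1.42-fold with dCeMM-4 (0.51, SE 0.10, adjusted p = 4.34e-05), the latter gone against the spike-ins at -0.05 (adjusted p = 0.879). CLK4 fell 2.47-fold with dCeMM-2 (-1.31, SE 0.13, adjusted p = 7.04e-12), 2.73-fold with dCeMM-3 and 2.31-fold with THZ531, and these falls were -3.07, -3.24 and -3.04 on the log2 scale against the spike-ins.

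CLK3, which shares the kinase domain of the family and is known for its abundance in testis, fell with dCeMM-3 and rose with dCeMM-4. Its level was 74.8, 86.1 and 82.6 CPM with DMSO, 22.2, 23.7 and 22.2 CPM with dCeMM-3 and 183, 192 and 206 CPM with dCeMM-4. With dCeMM-1 and dCeMM-2 it was 69.2, 71.7 and 68.4 and 73.9, 73.6 and 76.6 CPM, and with THZ531 34.97, 39.8 and 39.6 CPM. The dCeMM-4 libraries all lay above DMSO, the dCeMM-1, dCeMM-3 and THZ531 libraries all below, and the dCeMM-2 libraries overlapped DMSO. CLK3 rose 2.39-fold with dCeMM-4 (log2 difference 1.25, SE 0.07, adjusted p = 2.50e-18) and also against the spike-ins, by 0.68. It fell 3.57-fold with dCeMM-3 (-1.84, SE 0.08, adjusted p = 2.14e-22) and 2.13-fold with THZ531 (-1.09, SE 0.08, adjusted p = 6.40e-16). With dCeMM-1 it fell 1.16-fold (-0.22, SE 0.07, adjusted p = 0.0194), a call lost without DMSO replicate 2, dCeMM-1 replicate 1 or dCeMM-1 replicate 3, where the adjusted p was 0.155, 0.0608 and 0.0775, and lost against the spike-ins, at -0.17 (adjusted p = 0.779). With dCeMM-2 the log2 difference was -0.12 (95% interval -0.27 to 0.03, adjusted p = 0.134), and -1.92 against the spike-ins. Without DMSO replicate 1 it passed as lower, at -0.19 (adjusted p = 0.0266).

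CLK2, known also as an insulin-responsive kinase of liver metabolism, was the least counted gene, with 215 reads over the 3 DMSO libraries. Its levels ran from 5.03 to 5.56 CPM with DMSO, from 3.67 to 5.36 with dCeMM-1 and from 4.97 to 5.30 with dCeMM-4. With dCeMM-2, dCeMM-3 and THZ531 the 9 libraries lay between 2.04 and 2.90 CPM, below all DMSO libraries. CLK2 fell 2.08-fold with dCeMM-2 (log2 difference -1.06, SE 0.19, adjusted p = 6.85e-06), 1.90-fold with dCeMM-3 and 2.18-fold with THZ531. The log2 difference was -0.11 with dCeMM-1 (95% interval -0.44 to 0.21) and -0.02 with dCeMM-4 (95% interval -0.34 to 0.31), neither past the test.

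The SRPK genes differed from each other. SRPK1, the more abundant, stood at 208, 195 and 205 CPM with DMSO. It stood between 122 and 146 CPM in all 15 treated libraries, with no overlap, as for 44.4% to 79.7% of all genes by compound. It fell 1.44-fold with dCeMM-1 (log2 difference -0.52, SE 0.06, adjusted p = 2.73e-08), 1.47-fold with dCeMM-2 (-0.56, SE 0.06, adjusted p = 3.14e-10), 1.53-fold with dCeMM-3 (-0.61, SE 0.06, adjusted p = 2.49e-11), 1.41-fold with dCeMM-4 (-0.49, SE 0.06, adjusted p = 5.77e-09) and 1.57-fold with THZ531 (-0.65, SE 0.06, adjusted p = 6.23e-12). The 5 comparisons share the same DMSO libraries. Against the spike-ins the fall with dCeMM-1 did not pass, at -0.46 (SE 0.21, adjusted p = 0.204), and the others did, from -1.06 to -2.49.

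SRPK2, the paralogue of SRPK1, stood at 57.7, 54.6 and 52.5 CPM with DMSO. It was 23.8, 19.5 and 21.8 CPM with dCeMM-3 and 89.3, 88.5 and 85.2 CPM with dCeMM-4, below and above all DMSO libraries. It fell 2.53-fold with dCeMM-3 (log2 difference -1.34, SE 0.09, adjusted p = 4.99e-17) and rose 1.59-fold with dCeMM-4 (0.67, SE 0.08, adjusted p = 9.30e-10), a rise not seen against the spike-ins, at 0.11 (adjusted p = 0.700). With THZ531 it fell 1.25-fold (-0.33, SE 0.08, adjusted p = 4.42e-04), a call lost with DESeq2's size factors, at -0.17. With dCeMM-1 and dCeMM-2 it did not pass, at 0.08 (95% interval -0.08 to 0.24) and -0.14 (95% interval -0.30 to 0.03).

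DYRK1A gave the widest split between compounds that deplete cyclin K. Its level was 144, 133 and 123 CPM with DMSO, 145, 149 and 130.1 CPM with dCeMM-2, 21.96, 24.2 and 27.8 CPM with dCeMM-3 and 255, 259.9 and 281 CPM with dCeMM-4. The dCeMM-2 libraries overlapped DMSO, the dCeMM-3 libraries lay far below and the dCeMM-4 libraries above. With dCeMM-1 it was 146, 140.1 and 154 CPM and with THZ531 119, 102 and 105 CPM. DYRK1A fell 5.46-fold with dCeMM-3 (log2 difference -2.45, SE 0.09, adjusted p = 2.48e-25), which put 9.17% of all tested genes at a lower log2 difference, and against the spike-ins the fall was -4.25 (SE 0.24). It rose 1.97-fold with dCeMM-4 (0.98, SE 0.08, adjusted p = 1.75e-14), a rise that did not pass against the spike-ins, at 0.43 (SE 0.21, adjusted p = 0.0665). The difference with dCeMM-2 was 0.07 (95% interval -0.08 to 0.23) and turned to -1.69 against the spike-ins, and that with dCeMM-1 was 0.13 (95% interval -0.02 to 0.28). With THZ531 it fell 1.24-fold (-0.31, SE 0.08, adjusted p = 4.42e-04), a call lost with DESeq2's size factors, at -0.15. With only the 6 libraries compared, the dCeMM-2 difference passed as higher, at 0.18 (adjusted p = 0.0314).

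The log2 difference of RSRP1 from DMSO was the highest of the 8 genes with all 5 compounds. It was counted at 35.2, 39.3 and 41.2 CPM with DMSO. The level was 108, 114 and 115 CPM with dCeMM-1, 142, 124 and 102 with dCeMM-2, 117, 141 and 155 with dCeMM-4 and 107, 94.03 and 101 with THZ531. With dCeMM-3 it was 30.3, 27.3 and 39.3 CPM. The 12 libraries of the first 4 treatments lay above all DMSO libraries, and the dCeMM-3 libraries overlapped them. RSRP1 rose 2.94-fold with dCeMM-1 (log2 difference 1.56, SE 0.12, adjusted p = 2.51e-09), 3.23-fold with dCeMM-2 (1.69, SE 0.12, adjusted p = 1.94e-11), 3.61-fold with dCeMM-4 (1.85, SE 0.12, adjusted p = 5.07e-12) and 2.64-fold with THZ531 (1.40, SE 0.13, adjusted p = 5.63e-10). Against the spike-ins the rise was 1.60 with dCeMM-1 (adjusted p = 4.28e-10) and 1.29 with dCeMM-4 (adjusted p = 1.52e-08), while with dCeMM-2 the difference turned to -0.11 (adjusted p = 0.624) and with THZ531 to -0.46 (adjusted p = 0.0377). With dCeMM-3 the log2 difference was -0.24 (95% interval -0.51 to 0.04, adjusted p = 0.109), and -2.06 against the spike-ins (adjusted p = 8.25e-20). The gene passed as lower without dCeMM-3 replicate 3, at -0.42 (adjusted p = 0.00702), and with no filter on low counts, at -0.33 (adjusted p = 0.00186).

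The rank of the RSRP1 rise differed by compound. With dCeMM-1, 118 of the 15055 tested genes had a higher log2 difference than RSRP1, against 352 with dCeMM-4, 861 with dCeMM-2 and 1460 with THZ531. Ordered by level, RSRP1 was highest with dCeMM-4, then dCeMM-2, dCeMM-1, THZ531, DMSO and dCeMM-3. The ranges of dCeMM-4 and dCeMM-2, of dCeMM-2 and dCeMM-1, of dCeMM-2 and THZ531, and of DMSO and dCeMM-3 overlapped. The share of uniquely aligned reads outside annotated features was 7.14% ± 0.47 with DMSO and 8.09% ± 0.26 with dCeMM-1. It was 11.7% ± 1.5 with dCeMM-2, 11.7% ± 0.84 with dCeMM-4 and 11.4% ± 2.7 with THZ531. The libraries of these treated groups did not overlap DMSO (exact two-sided permutation p = 0.1 each, the smallest that 3 libraries against 3 allow). With dCeMM-3 it was 8.87% ± 1.34 (p = 0.3 by the same exact test), a mean above that with dCeMM-1. The part of this share in the RSRP1 values was not tested. TMEM50A, on the opposite strand, shares 297 exonic bases with RSRP1 and was at log2 differences of -0.04 to 0.36.

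**Figure D2:**
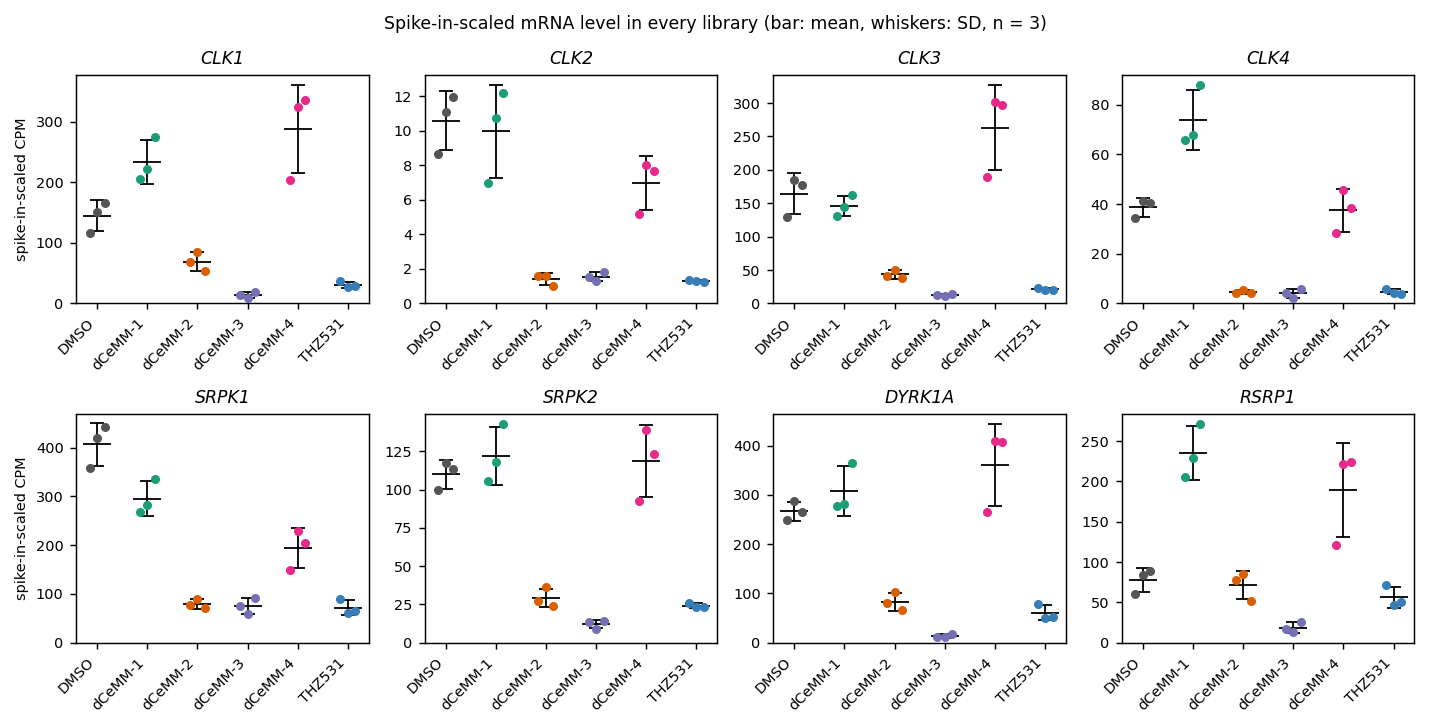
Spike-in-scaled CPM of the 8 genes (linear axes from 0, one panel a gene) in each of the 18 libraries, by group, with points for libraries, bars for group means and whiskers for the SD. CLK1 and RSRP1 stay above DMSO with dCeMM-1 and dCeMM-4, and all 8 genes are lower than DMSO with dCeMM-3.

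Counted over the set, dCeMM-1 raised 3 of the 8 genes (CLK1, CLK4 and RSRP1), where it raised 16.5% of all tested genes, and lowered 2 (CLK3 and SRPK1), where it lowered 14.8%. dCeMM-2 raised 2 (CLK1 and RSRP1; 37.1% of all genes) and lowered 3 (CLK2, CLK4 and SRPK1; 41.2%). dCeMM-3 lowered 7, all but RSRP1 (45.1%), where 35.9% of all genes rose. dCeMM-4 raised 6, all but CLK2 and SRPK1 (32.9%), and lowered SRPK1 alone of the 8 (35.3%). THZ531 raised RSRP1 (35.8%) and lowered the other 7 (43.7%). With DESeq2's size factors the number lowered by THZ531 was 4, where 5960 of the 15055 tested genes were lower. The median log2 difference of the 8 genes was 0.10 with dCeMM-1, -0.13 with dCeMM-2, -1.39 with dCeMM-3, 0.82 with dCeMM-4 and -0.50 with THZ531, beside medians over all tested genes of 0.03, -0.02, -0.15, 0.01 and -0.10. Against the spike-ins, dCeMM-1 raised 3 (2.83% of all genes), dCeMM-2 lowered 7 (83%), dCeMM-3 lowered 8 (83.7%), dCeMM-4 raised 3 (6.3%) and lowered 1 (48%), and THZ531 lowered 8 (84.7%). The counts of falls against the spike-ins with dCeMM-2, dCeMM-3 and THZ531 stood near the share of all genes. The median of the 8 genes on that scale was -1.91 with dCeMM-2, where all genes were at -1.80, and -3.20 with dCeMM-3, where all genes were at -1.96.

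**Figure D3:**
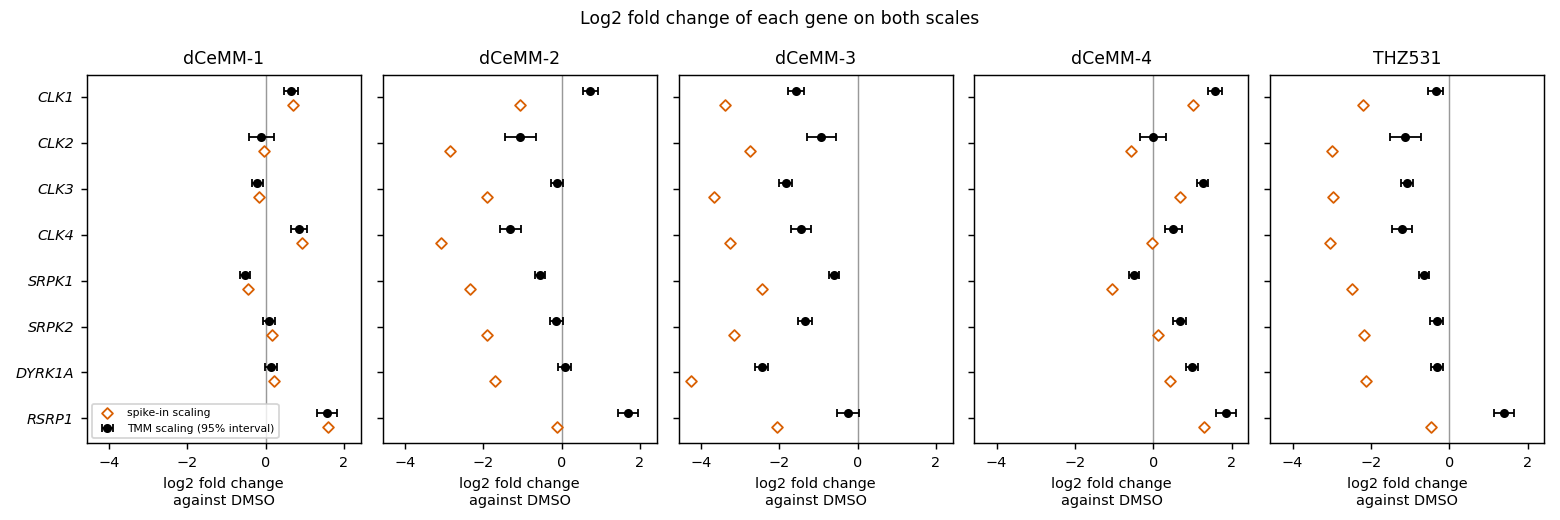
Log2 difference from DMSO of each gene with each compound, under TMM scaling (black points with 95% intervals) and under spike-in scaling (open diamonds). With dCeMM-2, dCeMM-3 and THZ531 the spike-in values lie far to the left of the TMM values. With dCeMM-1 the scalings nearly coincide, and DYRK1A with dCeMM-3 is the lowest value on both.

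dCeMM-2 and dCeMM-3, both known to deplete cyclin K, left different levels of several of these genes. Of the 8 genes, 5 differed, all higher with dCeMM-2 (26.6% of all tested genes were higher and 16.5% lower). With DESeq2's size factors, 3535 of all genes were higher and 3363 lower, where TMM gave 4008 and 2480, and the 5 genes kept their calls. DYRK1A was 5.75 times as high with dCeMM-2 (log2 difference 2.52, SE 0.09, adjusted p = 3.64e-25) and CLK1 4.94 times (2.30, SE 0.10, adjusted p = 7.58e-21). RSRP1 was 3.80 times as high (1.93, SE 0.13, adjusted p = 5.99e-12), CLK3 3.29 times and SRPK2 2.30 times. These 5 held against the spike-ins, where 18.4% of all genes were higher with dCeMM-2, at 1.24 for SRPK2 to 2.56 for DYRK1A. CLK2, CLK4 and SRPK1 were not told apart between these compounds, with 95% intervals of the log2 difference of -0.58 to 0.31, -0.16 to 0.44 and -0.08 to 0.18.

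With dCeMM-4, most of these genes were higher than with the other compounds known to deplete cyclin K. Levels with dCeMM-3 were lower for 7 genes (41.2% of all genes were lower and 41.5% higher), all but SRPK1, with DYRK1A at -3.43 (SE 0.09, adjusted p = 3.62e-30), CLK1 at -3.14 and CLK3 at -3.09. Levels with dCeMM-2 were lower for 6 (38.9% of all genes were lower and 38.4% higher), with CLK4 at -1.81 (SE 0.12, adjusted p = 1.75e-16) and CLK3 at -1.37, while SRPK1 (95% interval -0.19 to 0.06) and RSRP1 (-0.39 to 0.07) did not pass. RSRP1 did pass as lower with dCeMM-2 with no filter on low counts (-0.26, adjusted p = 0.00597), without dCeMM-2 replicate 1 (-0.29, adjusted p = 0.0214) and without dCeMM-4 replicate 1 (-0.26, adjusted p = 0.0424). The RSRP1 difference between dCeMM-2 and dCeMM-4 was -1.40 against the spike-ins (adjusted p = 1.55e-10).

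dCeMM-1, the RBM39 compound, differed from dCeMM-2 in 3 genes, all higher with dCeMM-1: CLK4 (2.16, SE 0.12, adjusted p = 2.74e-19), CLK2 (0.94) and SRPK2 (0.22). Of all tested genes, 43.1% were higher with dCeMM-1 and 37.3% lower. With DESeq2's size factors SRPK2 lost its call (0.10), and CLK1, CLK3 and RSRP1 passed as lower with dCeMM-1, at -0.20, -0.21 and -0.24, and RSRP1 also without dCeMM-2 replicate 3 (-0.24, adjusted p = 0.0420). For CLK1 and RSRP1, higher than in DMSO with both relative to other genes, the intervals between the compounds were -0.26 to 0.09 and -0.37 to 0.10. With dCeMM-3, 7 genes were lower than with dCeMM-1, all but SRPK1, and 46.8% of all genes were, while 35.7% were higher. Against dCeMM-4, dCeMM-1 was higher for CLK4 (0.35, SE 0.09, adjusted p = 0.00118; 37.2% of all genes were higher; 0.20 and not called with DESeq2's size factors) and lower for 5 genes (34.5%): CLK1 (-0.92), CLK3 (-1.47), SRPK2 (-0.59), DYRK1A (-0.85) and RSRP1 (-0.29, adjusted p = 0.0223). The RSRP1 call was lost when 1 library was left out in 3 of 6 cases, and against the spike-ins it was 0.31 (adjusted p = 0.197). On that scale CLK3 (-0.85) and CLK4 (0.98) kept their calls. CLK1 (-0.30, adjusted p = 0.216), DYRK1A (-0.23, adjusted p = 0.356) and SRPK2 (0.04, adjusted p = 0.876) lost theirs. SRPK1 passed in 0 of the 6 pairs of compounds under TMM scaling (0 at an unadjusted p under 0.05, 1 with DESeq2, for dCeMM-1 against dCeMM-4 at -0.18), but this depended on the settings. For dCeMM-3 against dCeMM-4 it passed with no filter on low counts (-0.24, adjusted p = 0.00978) and without dCeMM-3 replicate 3 (-0.18, adjusted p = 0.0147). For dCeMM-1 against dCeMM-3 it passed as higher with no filter (0.19, adjusted p = 0.0498) and without dCeMM-3 replicate 3 (0.15, adjusted p = 0.0368), and as lower with only the 6 libraries compared (-0.17, adjusted p = 0.0271). SRPK1 was lower with dCeMM-2, dCeMM-3 and dCeMM-4 than with dCeMM-1 against the spike-ins.

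**Figure D4:**
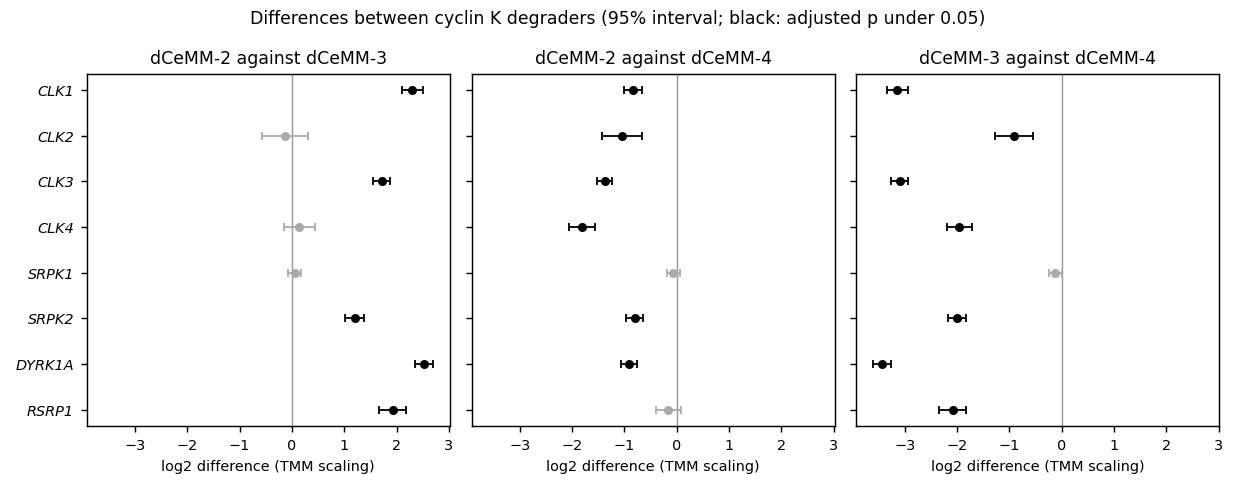
Log2 difference of each gene (TMM scaling) between dCeMM-2, dCeMM-3 and dCeMM-4, for the 3 pairs of these compounds, with 95% intervals, black where the adjusted p was under 0.05 and grey elsewhere. SRPK1 lies near 0 in the 3 pairs, and DYRK1A reaches -3.43 for dCeMM-3 against dCeMM-4.

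The genes of the set followed one another unevenly over the 18 libraries. TMM-scaled log2 CPM of SRPK2 and DYRK1A had a Pearson r of 0.971, CLK1 and SRPK2 0.945, CLK1 and DYRK1A 0.942, and CLK1 and CLK3 0.931. CLK2 went most with CLK4 (0.855). RSRP1 went most with CLK1 (0.803) and had an r of 0.01 with CLK2 and -0.40 with SRPK1. The libraries come in groups of 3 that share a treatment, and a gene's values share each library's depth and scaling, so these coefficients are descriptions. Over 9871 protein-coding genes, the genes most like each were UHRF2, PDP1 and ZBTB1 for CLK1 (r = 0.985 to 0.991), SMG5, NFIX and ZNF343 for CLK2 (0.959 to 0.960), CYTIP, USP22 and USP31 for CLK3 (0.989 to 0.992), and MAGEF1, ATF2 and CENPL for CLK4 (0.981 to 0.985). For SRPK1 they were FARSB, PUSL1 and ASH2L (0.895 to 0.923), for SRPK2 SCAF8, EPC2 and AFF1 (0.986 to 0.987) and for DYRK1A UBP1, ABI1 and NRIP1 (0.992 to 0.993). For RSRP1 they were ANKRD10 (0.955), EPB41L5 (0.945) and LPAR6 (0.940), so RSRP1 and SRPK1 had no gene as close to them as the other 6 had.

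The substrates of these kinases, the SR proteins, were measured at 14 of 14 genes. The shares of all tested genes that rose and fell were 16.5% and 14.8% with dCeMM-1, 37.1% and 41.2% with dCeMM-2, 35.9% and 45.1% with dCeMM-3, 32.9% and 35.3% with dCeMM-4, and 35.8% and 43.7% with THZ531. With dCeMM-1, 3 rose and 1 fell, led by TRA2A (log2 difference 0.67), a splicing activator of the transformer-2 type, and SRSF7 (-0.21, not past the test against the spike-ins or with no filter on low counts). With dCeMM-2, 2 rose and 8 fell, with TRA2B at 0.63 (-1.15 against the spike-ins) and SRSF1, the prototype SR protein, at -1.90. With dCeMM-3, 13 of 14 fell, with SRSF4 at -2.23. With dCeMM-4, 7 rose and 3 fell, with SRSF5 at 0.94 (0.38 against the spike-ins, not past the test) and SRSF1 at -1.08. With THZ531, 2 rose and 10 fell, with TRA2B at 0.39 (-1.46 against the spike-ins) and SRSF1 at -1.40. The median log2 difference of the 14 was 0.08, -0.27, -1.26, 0.29 and -0.35 in this order of compounds. Against the spike-ins 14 of 14 were lower with dCeMM-2, dCeMM-3 and THZ531, where 83%, 83.7% and 84.7% of all genes were, 4 were lower with dCeMM-4, where 48% of all genes were, and 1 was higher with dCeMM-1, where 2.83% of all genes were.

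Of 11 other kinases of the same branch or of splicing factors (DYRK, HIPK, CDK11, PRPF4B and SRPK3), 10 were tested and SRPK3 was not. Rises and falls numbered 2 and 1 with dCeMM-1, 2 and 7 with dCeMM-2, 1 and 8 with dCeMM-3, 6 and 1 with dCeMM-4, and 1 and 7 with THZ531, at medians of 0.12, -0.55, -1.17, 0.27 and -0.33. All tested genes rose and fell at shares of 16.5% and 14.8%, 37.1% and 41.2%, 35.9% and 45.1%, 32.9% and 35.3%, and 35.8% and 43.7%, in the same order. DYRK3, a kinase that dissolves speckles and other condensates in dividing cells, had the largest fall in each comparison, at log2 differences of -0.40 with dCeMM-1 (not past the test against the spike-ins), -2.69 with dCeMM-2, -3.30 with dCeMM-3, -0.72 with dCeMM-4 and -3.04 with THZ531. DYRK4 had the largest rise with dCeMM-2 (0.98), dCeMM-3 (1.04) and THZ531 (0.76) relative to other genes, and was at -0.83, -0.80 and -1.11 against the spike-ins. HIPK1, a nuclear kinase that acts on transcription factors, led with dCeMM-4 (1.04, and 0.50 against the spike-ins), and HIPK3 with dCeMM-1 (0.26, not past the test against the spike-ins or without dCeMM-1 replicate 3).

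Of 22 SR-related, speckle and SR import genes, 21 were tested and U2AF1 was not. Rises and falls numbered 6 and 1 with dCeMM-1, 6 and 12 with dCeMM-2, 2 and 18 with dCeMM-3, 16 and 1 with dCeMM-4, and 6 and 14 with THZ531, at medians of 0.06, -0.55, -1.17, 0.59 and -0.50. Beside these counts stand the shares of all tested genes, 16.5% higher and 14.8% lower, 37.1% and 41.2%, 35.9% and 45.1%, 32.9% and 35.3%, and 35.8% and 43.7%. SREK1, a regulator of SR protein activity, led with dCeMM-1 (0.68), LUC7L3, of the U1 snRNP, with dCeMM-2 (1.31, but -0.47 against the spike-ins), NKTR with dCeMM-3 (0.45, but -1.38), and CCNL2, the cyclin of CDK11, with dCeMM-4 (1.55, and 0.98) and THZ531 (1.04, but -0.83). The largest falls were DDX23 with dCeMM-1 (-0.32, not past the test against the spike-ins), LUC7L with dCeMM-2 (-1.81) and THZ531 (-1.44), SON, a scaffold of speckles, with dCeMM-3 (-2.56) and DDX23 with dCeMM-4 (-0.17). The dCeMM-4 value of DDX23 passed in 1 of the 6 fits that left out a library, the one without DMSO replicate 3, and did not pass with DESeq2 (-0.04).

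**Figure D5:**
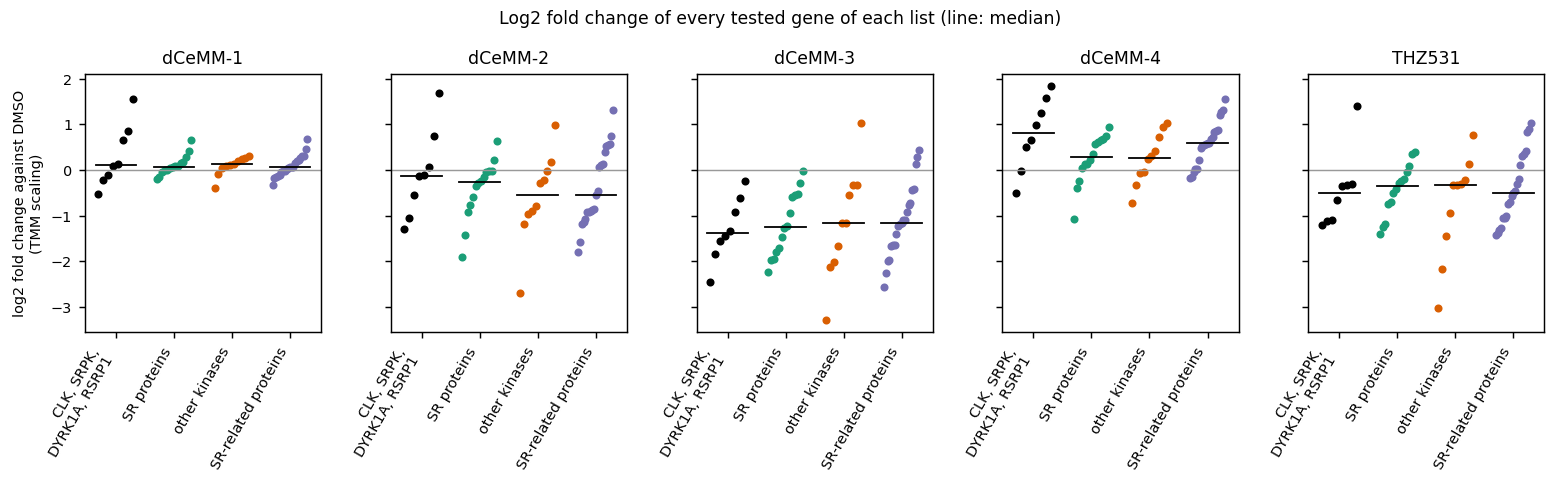
Log2 difference from DMSO (TMM scaling) of each tested gene of the set of 8 and of the 3 lists, by compound, with 1 point per gene in rising order and the median of each list as a line. The medians of all 4 are lowest with dCeMM-3, between -1.39 and -1.17, and highest with dCeMM-4, between 0.27 and 0.82.

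Some of the 8 genes share exonic bases with other genes, and whether the counting used strand is not given in the sources used here. CLK3 shares 701 with EDC3 on the opposite strand, which was at log2 differences of 0.15, -1.92, -2.24, -0.62 and -1.70 with the compounds in the order above. SRPK2 shares 98 with KMT2E and SRPK1 shares 265 with LHFPL5, which had 12 reads over all libraries. The processed copies CLK2P1 and CLK3P2 had 4 and 6 reads over all 18 libraries. Reads without a unique alignment were assigned to no gene. Their share of aligned reads was lowest with DMSO, at a mean of 28.3%, and highest with dCeMM-3, at 41.0%. How many of them stem from CLK2, CLK3 or their copies was not tested.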

How the data were processed

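The deposited tables hold raw read counts per gene for each library, with no normalization, which the authors made from poly-A enriched libraries with added ERCC and SIRV spike-in RNAs. Tools named, without roles, in the submitters' processing notes are HTSeq 0.11.2, Picard, STAR 2.5.2b and Trimmomatic 0.32, on build GRCh38.p7. The strand setting and the annotation release are not given in the sources used here. Symbols, positions, transcripts and splice site sequences came from GENCODE 29 (57447 of 58051 gene rows matched). Summary rows of reads not assigned to a gene and spike-in rows stayed out of library sizes. These counts were analysed with edgeR 4.0.16 in R 4.3.3: filterByExpr by group kept 15055 genes, libraries were scaled by TMM, and a robust quasi-likelihood model over all 18 libraries (12 residual degrees of freedom, common dispersion 0.00439) gave 5 comparisons with DMSO and 6 between dCeMM compounds. Adjusted p-values are Benjamini-Hochberg values over all 15055 genes within a comparison, with a threshold of 0.05, and "called" or "passed" refers to it. Intervals are at 95%. The same model was fitted with libraries scaled by their summed spike-in counts. DESeq2 1.42.0, its size factors within edgeR, no filter on low counts, only the 6 libraries compared, a replicate block and leaving out each library were the alternatives. Likeness between genes was Pearson's r of log2 CPM with a prior count of 2, over protein-coding genes with a mean of at least 5 CPM, and the 3 highest were named. From each of the 3 lists the largest rise and fall past the threshold, at 5 CPM or more in the higher group, were named. In simulated data for dCeMM-1 against DMSO (13749 genes), the test found 100% of genes changed by 2 on the log2 scale, 96% of those raised by 1 and 90% of those lowered by 1. The simulation changed 50 genes at each size, far fewer than were called in the data. It held no change smaller than 1, so it does not cover the smaller differences reported here. The 8 genes and the lists were chosen with earlier results of these data known. Same-numbered libraries did not deviate together.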

Additional observations from a re-analysis of the deposited data

Results flagged for a closer look

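Reads that are not assigned to the 8 genes stood above DMSO in several groups. The share of uniquely aligned reads outside annotated features was 8.09% with dCeMM-1, 11.7% with dCeMM-2, 11.7% with dCeMM-4 and 11.4% with THZ531, each above all 3 DMSO libraries, whose mean was 7.14%. A Y RNA row that lies within CLK1, on the same strand and sharing 0 exonic bases with it, had 24 reads over the 3 libraries with dCeMM-3 and 32 with THZ531, every library above the DMSO libraries in CPM, which had 5 reads in all. It also had 27 reads with dCeMM-4 and 22 with dCeMM-2, where the CPM ranges overlapped that of DMSO, and 4 with dCeMM-1. AP001437.1, a non-coding gene antisense to DYRK1A that shares 360 of its 456 exonic bases with exons of DYRK1A, had 39 reads with THZ531, 24 with dCeMM-3 and 23 with dCeMM-2, against 0 with DMSO, 4 with dCeMM-1 and 3 with dCeMM-4. In the first 3 of these groups DYRK1A had a log2 difference from DMSO of -0.31, -2.45 and 0.07. What these reads come from was not tested.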

How the results depend on the processing

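The spike-in scaling changed the most. With it, the genes called lower with dCeMM-1 went from 2 to 0, those called higher with dCeMM-2 from 2 to 0 and lower from 3 to 7, those higher with dCeMM-4 from 6 to 3 and those higher with THZ531 from 1 to 0. Of all tested genes on that scale, 1.34% were lower with dCeMM-1, and 1.48% were higher and 83% lower with dCeMM-2. With dCeMM-4 6.3% were higher, and with THZ531 1.32%. The genes that differed between dCeMM-1 and dCeMM-2 went from 3 to 8, where 86.4% of all genes were higher with dCeMM-1 and 1.14% lower. Between dCeMM-1 and dCeMM-4 they went from 6 to 3, where 52.7% of all genes were higher with dCeMM-1 and 5.21% lower. The directions that turned against DMSO were those of CLK1 (-1.06), DYRK1A (-1.69), RSRP1 (-0.11), TRA2B (-1.15), DYRK4 (-0.83) and LUC7L3 (-0.47) with dCeMM-2, DYRK4 (-0.80) and NKTR (-1.38) with dCeMM-3, CLK4 (-0.047) with dCeMM-4, and RSRP1 (-0.46), TRA2B (-1.46), DYRK4 (-1.11) and CCNL2 (-0.83) with THZ531. Those of dCeMM-1 against dCeMM-2 turned for CLK1 (1.76), CLK3 (1.75) and RSRP1 (1.71), and of dCeMM-1 against dCeMM-4 for CLK2 (0.53), SRPK1 (0.60), SRPK2 (0.044) and RSRP1 (0.31).

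DESeq2's size factors moved the median of all genes with dCeMM-4 from 0.01 to 0.13. With them, and with only the 6 libraries compared, genes lower with THZ531 went from 7 to 4. Of all tested genes, 5960 of 15055 and 5749 of 13719 were lower in these 2 settings. The genes that differed between dCeMM-1 and dCeMM-2 went to 5 in both, as with DESeq2. Of all 15055 genes, 6019 were higher with dCeMM-1 and 6097 lower with the size factors, and 5864 and 5946 with DESeq2. With 6 libraries, 5970 were higher and 5804 lower of 13980. Size factors and DESeq2 turned values that were not called: CLK2 with dCeMM-4 (0.11 and 0.10; 0.0058 with no filter), and SRPK1 for dCeMM-2 against dCeMM-3 (-0.028 and -0.029). For dCeMM-1 against dCeMM-2 they turned SRPK1 (-0.075 and -0.074, and -0.094 with 6 libraries) and DYRK1A (-0.0577 and -0.0576, and -0.079 with 6 libraries), and for dCeMM-1 against dCeMM-3 SRPK1 (-0.10 in both). With 6 libraries the last was -0.17 and was itself called (adjusted p = 0.0271), while with no filter (0.19) and without dCeMM-3 replicate 3 (0.15) SRPK1 was called the other way. The cause was not tested.

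With no filter on low counts, 1 of the 8 genes was lower with dCeMM-1, where 1738 of 35976 genes were. Leaving out 1 library left 1 to 2 lower with dCeMM-1, where 1752 to 2082 of the 15368 to 15513 tested genes were. It turned only values that were not called: those of CLK2, which ran from -0.22 to 0.022 with dCeMM-1, from -0.044 to 0.0033 with dCeMM-4 and from -0.20 to 0.039 between them, and of CLK4 for dCeMM-2 against dCeMM-3, from -0.016 to 0.34. The other counts stayed within 1.5 times when a library was left out. The replicate numbers pair nothing in the labels, and deviations of same-numbered libraries correlated at -0.14 to 0.12, with 9 of 18 libraries closest to one of their own number. With the number as a replicate block, the counts with dCeMM-1 stayed at 3 higher and 2 lower, and 0 of the 88 differences of the 8 genes changed direction or call. CLK2, at 215 reads with DMSO, is the gene whose precision depth limits most.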
